A study of Mus musculus with 2 samples.

Results

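Keratin-associated proteins are small proteins that fill the space between the keratin filaments of the hair shaft and tie them together, largely through disulfide bonds. Their genes, named Krtap with a subfamily number, lie in clusters and are transcribed late in the growing hair follicle, in the cells of the cortex and cuticle of the forming shaft. They are usually divided by composition into high sulfur and ultrahigh sulfur proteins, rich in cysteine, and high glycine-tyrosine proteins. Members were all genes whose symbol begins with Krtap and a digit. The RefSeq gene table of assembly GRCm38.p6 holds 56 such genes, and 44 probes on the array reached 40 of them, out of 18206 named genes in all. The other 16 were not analysed here.

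Each genotype was measured on 1 one-colour array of RNA from peeled mouse epidermis in the steady state. The control carried Nfkbiz flox/flox alone. The knockout carried Nfkbiz flox/flox and K5-cre, in which the keratin 5 promoter drives the recombinase, so deletion is directed to basal keratinocytes and their descendants and not to other cells of the peeled sheet. Both carry the floxed allele, and the number, age, sex and hair-cycle stage of the mice are not given in the sources used here. With 1 array per group there is no spread between samples, so no difference below was tested, calls are by size alone, and each ± is a standard error (SE) from the scanner software's error model that covers technical error within these arrays.

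Nfkbiz, which encodes the nuclear IκB protein IκBζ, gave a signal of 3100 on the control and 1760 on the knockout array, a log2 difference of -1.04 ± 0.20 after scaling. Whether its single probe lies in the deleted part is not known here, so this value may not check the deletion. The tissue label was checked on Krt5, Krt14, Krt1, Krt10, Lor and Flg2, epidermal keratins and cornified envelope proteins. Their signals lay between 12000 and 80200 on the 2 arrays, and their differences between -0.24 and 0.05. Signals were scaled to the 75th percentile of all non-control probes, 194 on the control and 226 on the knockout array, and 56.2% and 56.3% of probes were well above background. The number of arrays limits the precision.

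Promoter sequence is shown for 6 members because it sets members far higher in the knockout beside members of the same family that were not higher. The first 3 are the members furthest up, and the last 3 are the chromosome 11 members with the highest control signals, among those with the letters TATAAA between 25 and 35 bases before the annotated start. Each line gives the 100 bases before the start, 5′ to 3′, from RefSeq on build GRCm38.p6, with TATAAA in capitals. All 6 genes lie on the minus strand, at chr16:88932265-88932364 for Krtap19-9b, chr16:88962874-88962973 for Krtap16-3, chr16:89047900-89047999 for Krtap6-5, chr11:99665961-99666060 for Krtap4-6, chr11:99993995-99994094 for Krtap17-1 and chr11:99556854-99556953 for Krtap3-2.
Krtap19-9b: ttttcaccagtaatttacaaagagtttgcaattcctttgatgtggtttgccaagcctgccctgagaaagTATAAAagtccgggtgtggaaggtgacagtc
Krtap16-3: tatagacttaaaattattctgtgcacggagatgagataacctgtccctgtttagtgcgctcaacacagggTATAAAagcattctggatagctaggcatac
Krtap6-5: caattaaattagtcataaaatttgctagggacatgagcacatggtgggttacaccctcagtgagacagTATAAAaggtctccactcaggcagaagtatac
Krtap4-6: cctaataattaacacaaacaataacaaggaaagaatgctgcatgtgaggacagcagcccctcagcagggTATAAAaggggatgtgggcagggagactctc
Krtap17-1: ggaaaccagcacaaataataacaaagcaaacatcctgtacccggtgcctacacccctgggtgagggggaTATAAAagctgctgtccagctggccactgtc
Krtap3-2: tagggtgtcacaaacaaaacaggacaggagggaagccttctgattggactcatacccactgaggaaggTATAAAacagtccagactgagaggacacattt
The capitals begin 30 to 32 bases before the start, a place fixed by how these 6 were picked. Promoters of 300 bases (250 before to 50 after the start) were found for 37 of the 40 members. TATAAA stood 25 to 35 bases before the start on the gene's strand in 20 of these (54.1%), against 1.75% of the 32851 promoters in the table. It did so in 4 of 12 high glycine-tyrosine members and in 13 of 22 high or ultrahigh sulfur members. CTTTGA, the core letters bound by Lef1-type factors, was present on either strand in 11 of the 37 member promoters (29.7%). Among all promoters the share was lower, 5257 of 32851. By class, CTTTGA was present in 3 of 12 high glycine-tyrosine members and in 7 of 22 high or ultrahigh sulfur members. TTTATNG, letters of a homeobox site of the Hoxc13 type, was present on either strand in 13.5% of member promoters and 10.9% of all promoters. These are matches of letters in a window and not shown to be sites.

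Some Krtap genes were far higher on the knockout array, and others of the family were not. Of the 40 members, 29 were well above background on both arrays, and 9 of these had at least 2-fold more signal in the knockout, 1 had at least 2-fold less, and 19 lay in between. The shares of all 12395 genes measured on both arrays were 3.03% higher and 4.39% lower, against 31.0% and 3.45% of the members. The median log2 difference was 0.32 for members (range -1.07 to 3.96) and -0.04 for all genes. Under normexp, an alternative background correction, the member median was 0.08, and the 17 measured members outside chromosome 16 had a median of 0.00 in the main setting. At least 8-fold higher were 5 members, out of 13 such genes on the whole array (0.105%). Under normexp this was 1 member, Krtap16-3, out of 5 genes. A further 8 of the 40 members were measured on the knockout array alone, a state that 3.16% of all named genes share, 1 on the control array alone and 2 on neither.

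**Figure D1:**
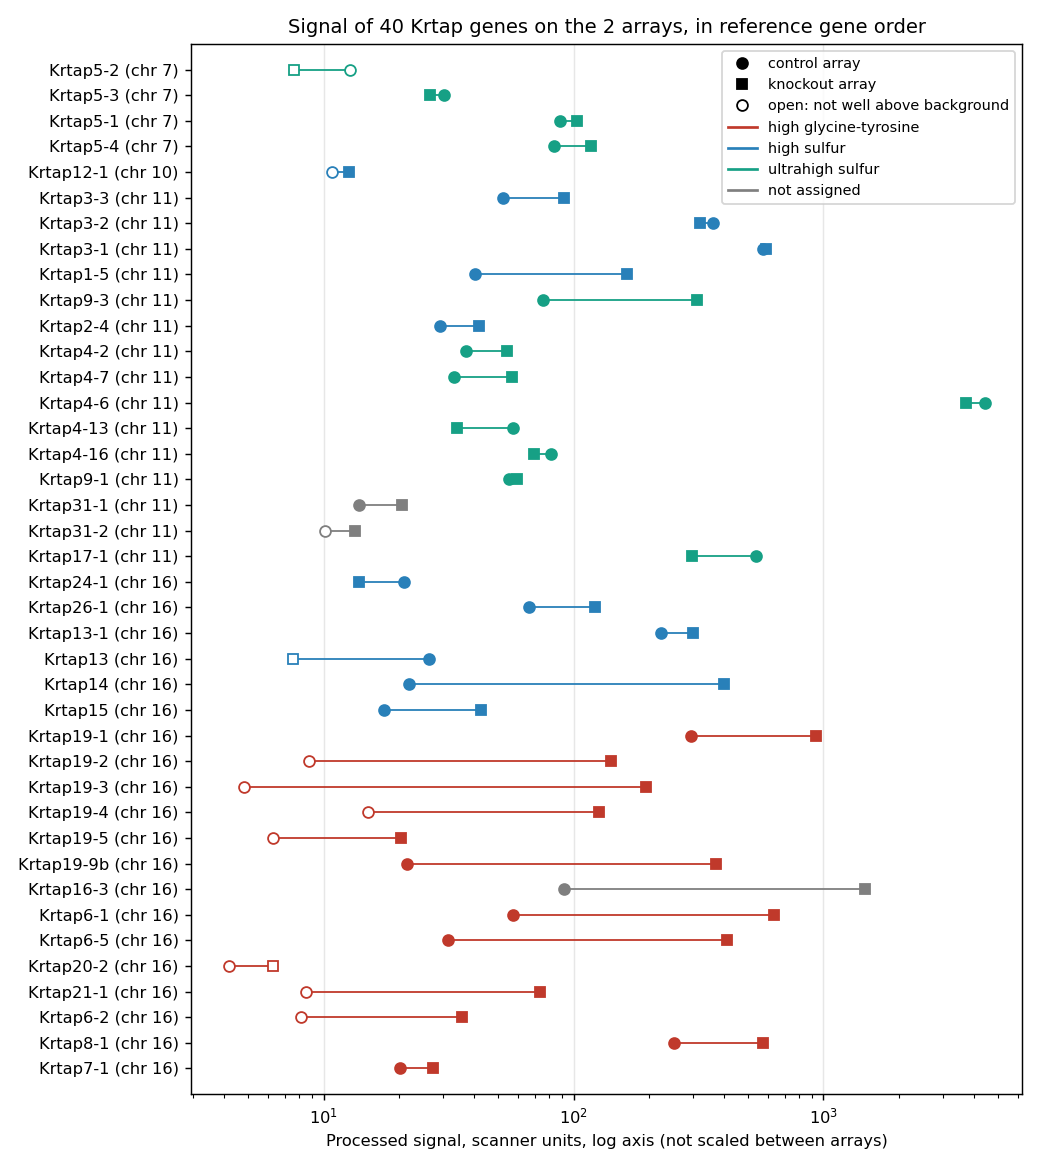
Processed signal (log axis, scanner units, not scaled) of each of the 40 Krtap genes on the control (circle) and knockout (square) array, in reference gene order, with open symbols where the probe was not well above background. Long lines run to the right from Krtap14 to Krtap6-2 on chromosome 16, while Krtap4-6 sits at 4420 and 3710 and the chromosome 7 genes have short lines.

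**Figure D2:**
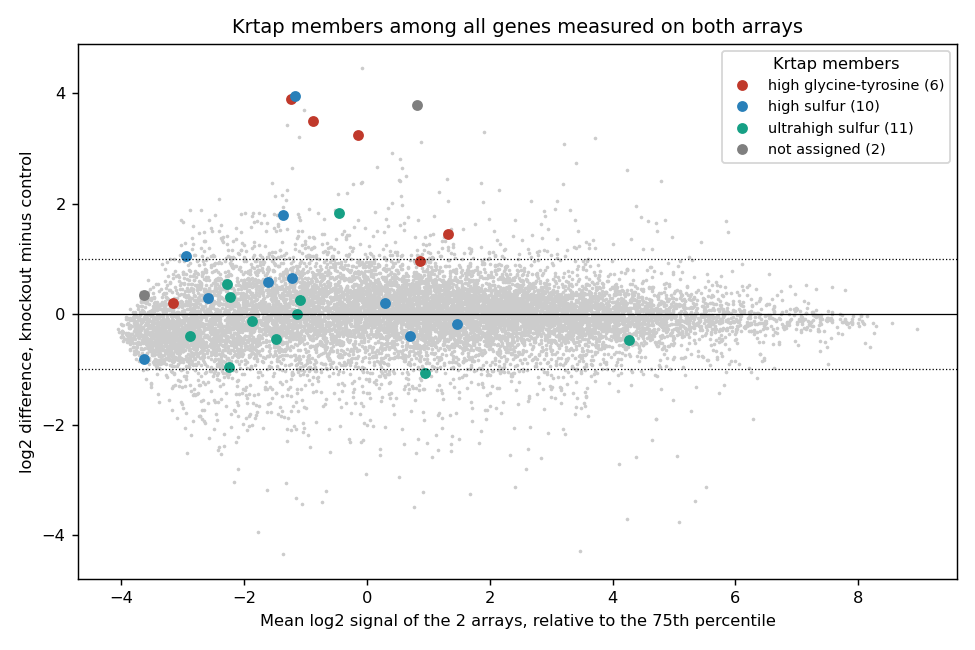
Log2 difference (knockout minus control) against mean scaled log2 signal for 12395 genes (grey) and the 29 Krtap genes measured on both arrays (coloured by class, dotted lines at 2-fold). The 5 members at least 8-fold higher lie at the upper edge of all genes, at low to middle signal.

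The high glycine-tyrosine class, small cortex proteins of subfamilies 6, 7, 8, 19, 20 and 21, stood furthest from the other genes. Of its 13 members with a probe, 6 were measured on both arrays, with a median difference of 2.35, and 4 of them were at least 2-fold higher and none lower. Another 6 were measured on the knockout array alone. For 5 of those, even the bound exceeded 2-fold, against 16.9% of the 575 genes of the whole array in that state. Under normexp only the bounds of Krtap19-3 and Krtap19-2 stayed past 2-fold. All 6 were counted because they were measured on the knockout array, so their direction is not a finding of its own. The remaining member, Krtap20-2, had signals of 4.18 and 6.27, not well above background on either array.

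Subfamily 19 had 6 members with a probe, the most of any subfamily. Krtap19-9b had a signal of 21.5 on the control and 372 on the knockout array, a log2 difference of 3.89 ± 0.29, or 14.9-fold, and of 2.13 under normexp. Krtap19-1 went from 294 to 936, a difference of 1.45 ± 0.20, at its brighter probe. Its other probe read 26.8 and 718, a difference of 4.52 ± 0.27, so the size for this gene depends on the probe while both probes were higher. The other 4 members of the subfamily were measured on the knockout array alone.

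Where a probe was not well above background on an array, the difference is a bound, taken against the higher of the probe's own signal there and the lowest signal of any probe well above background, 12.7 on the control and 12.1 on the knockout array. Krtap19-3 read 4.79 on the control and 195 on the knockout array, at least 13.2-fold higher. Krtap19-2 read 8.73 and 141, at least 9.53-fold higher. Krtap19-4 read 15.1 and 127, at least 7.22-fold higher. Krtap19-5 read 6.28 and 20.4, and its bound of 1.38-fold is under the threshold, with a log2 bound of -0.02 under normexp. These 4 were counted because they were measured on the knockout array, so their direction is not a finding of its own.

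Subfamily 6 had 3 members with a probe. Krtap6-5 had signals of 31.4 and 410, a difference of 3.49 ± 0.24. Krtap6-1 had signals of 57.2 and 633, a difference of 3.25 ± 0.23. Their SEs overlap, and under normexp the differences were 2.24 for Krtap6-5 and 2.23 for Krtap6-1. Krtap6-2 read 8.11 and 35.8, at least 2.42-fold higher. Krtap21-1, the one probed member of its subfamily, read 8.49 and 73.3, at least 4.95-fold higher. Under normexp the bounds stayed past 2-fold for Krtap19-3 (1.87 in log2) and Krtap19-2 (1.35), and fell short for Krtap19-4 (0.97), Krtap21-1 (0.79) and Krtap6-2 (0.31).

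The class was not uniform. Krtap8-1 had signals of 252 and 571, a difference of 0.96 ± 0.20 that is just under 2-fold, and its other probe gave 0.71. Krtap7-1 had signals of 20.3 and 27.3 and a difference of 0.21 ± 0.30, which is smaller than its error. In gene order these are the last probed members on chromosome 16. Krtap16-3, which was not assigned to a class here, had signals of 91.8 and 1470 and a difference of 3.78 ± 0.21, the third furthest of the members measured on both arrays.

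Among 12 high sulfur members, 10 were measured on both arrays, with a median of 0.44 and a range from -0.81 to 3.96. Krtap14 read 22.0 and 400, a difference of 3.96 ± 0.28, the largest of any member measured on both arrays. Under normexp it was 2.28, below the 3.20 of Krtap16-3. Krtap1-5 read 40.4 and 164, a difference of 1.80 ± 0.24. Krtap15 read 17.5 and 42.5, a difference of 1.06 ± 0.36 that is within its error of the threshold. These 3 were the high sulfur members at least 2-fold higher, and none measured on both arrays was 2-fold lower.

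The remaining high sulfur genes with a measured difference lay within 2-fold. Krtap26-1 differed by 0.66 ± 0.22, Krtap2-4 by 0.30 ± 0.26 and Krtap13-1 by 0.21 ± 0.21, while Krtap24-1 differed by -0.81 ± 0.40. Krtap13 had signals of 26.3 and 7.53, at least 2.53-fold lower and measured on the control array alone, with a log2 bound of -0.57 under normexp. In that state 37.7% of all genes had a bound past 2-fold. Krtap12-1 read 10.8 and 12.6, and no fold is given because its bound does not reach a higher value.

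Subfamily 3 had all 3 members measured and none past 2-fold, with a median of -0.18. Krtap3-2 read 361 and 321, a difference of -0.39 ± 0.20, and Krtap3-3 read 52.3 and 91.4, a difference of 0.59 ± 0.22. Krtap3-1 is the member whose probes disagreed in sign. Its brightest probe read 571 and 587, a scaled difference of -0.18 ± 0.20, and the others read 349 and 724 (0.83 ± 0.20) and 49.1 and 103 (0.85 ± 0.24). No direction can be given for this gene, and with the mean over probes the median of the subfamily was 0.50.

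Ultrahigh sulfur genes, of subfamilies 4, 5, 9 and 17, lay mostly within 2-fold. Of 12 with a probe, 11 were measured on both arrays, with a median of -0.12, close to the -0.04 of all genes, and 1 was 2-fold higher and 1 lower. All 5 members of subfamily 4 were measured and none passed 2-fold. Krtap4-6 had signals of 4420 and 3710, a difference of -0.47 ± 0.20. Krtap4-13 was the lowest of the subfamily at -0.96 ± 0.25, from 57.1 to 34.1, and Krtap4-7 the highest at 0.55 ± 0.25. The subfamily median was -0.45.

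Subfamily 5, known from the hair cuticle, had 3 of its 4 members measured, at -0.40 (Krtap5-3), 0.00 (Krtap5-1) and 0.26 (Krtap5-4), none further from 0 than 0.40. Krtap5-1 read 88.4 and 103, and Krtap5-4 read 83.8 and 117. Krtap5-2 was not well above background, at 12.8 and 7.59. Subfamily 9 split. Krtap9-3 read 75.2 and 312, a difference of 1.83 ± 0.22, whereas Krtap9-1 read 55.4 and 59.5, a difference of -0.12 ± 0.25, so these members differ by far more than their errors. Krtap17-1 was the single member measured on both arrays that was at least 2-fold lower, from 539 to 299, a difference of -1.07 ± 0.21. Under median scaling and under normexp it was -0.72, so its call does not hold there. The unassigned subfamily 31 read 13.9 and 20.5 for Krtap31-1 and 10.1 and 13.4 for Krtap31-2.

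**Figure D3:**
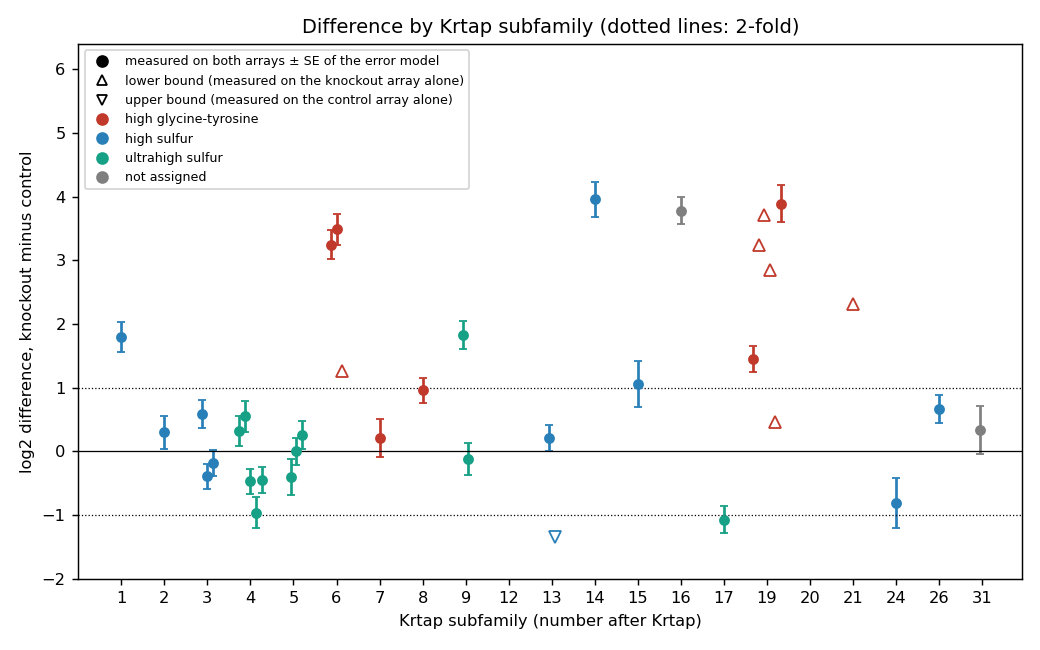
Log2 difference (knockout minus control) of each Krtap gene by subfamily, with filled points ± SE of the error model for genes measured on both arrays and open triangles for bounds. Subfamilies 6, 14, 16 and 19 have points above 3, and subfamilies 2, 3, 4, 5 and 7 lie within the dotted 2-fold lines.

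Chromosome divided the members too, but all 13 high glycine-tyrosine members lie on chromosome 16, so class and chromosome cannot be fully told apart. Of 20 probed members on chromosome 16, 12 were measured on both arrays, with a median of 1.26, and 7 were at least 2-fold higher. Of those 12, the 5 high sulfur members had a median of 0.66, and the 7 others one of 3.25. Of 20 on chromosomes 7, 10 and 11, 17 were measured on both arrays, with a median of 0.00, and 2 were at least 2-fold higher (Krtap1-5 and Krtap9-3, which lie near each other on chromosome 11). Within chromosome 16, the members from Krtap14 to Krtap6-2 in the order of the RefSeq table form a run. Its ends were chosen after the values were seen, so its contrast with the other chromosome 16 members follows from that choice. Of its 14 probed members, 7 were measured on both arrays, and each of the 7 passed 2-fold upwards, with a median of 3.49. Krtap15, one of the 7, was at 0.08 under normexp. Another 5, counted because they were measured on the knockout array alone, had bounds past 2-fold. The last 2 were Krtap19-5 and Krtap20-2. The 5 chromosome 16 members measured on both arrays outside the run ranged from -0.81 to 0.96.

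None of the nearest measured genes beside the chromosome 16 members was 2-fold higher. On one side Cldn8, a claudin gene, read 34.6 and 20.2, Bach1 differed by -1.09 ± 0.21 and Cct8 by 0.08 ± 0.20. On the other side Tiam1 differed by -0.13 ± 0.20, Sod1 by -0.06 ± 0.20 and Scaf4 by 0.65 ± 0.21. Inside the cluster 1 gene without a Krtap symbol, 2310079G19Rik, was well above background on both arrays, with signals of 14.5 and 18.7 and a difference of 0.15 ± 0.40. Whether it encodes a keratin-associated protein was not checked.

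Difference showed little relation to the mean signal of the 2 arrays, a level that holds the knockout signal itself. Across the 29 members measured on both arrays, Spearman's rho between difference and mean scaled signal was 0.11, as a description of members that share both arrays. Among the 14 with control signals below the members' median of 57.1, 5 were at least 2-fold higher, and 4 of the other 15 were. The 5 members at least 8-fold higher had control signals from 21.5 (Krtap19-9b) to 91.8 (Krtap16-3). Of the measured members brighter than that on the control array, Krtap19-1 had the largest difference, 1.45. Spots within 3 rows and 3 columns of the 44 member probes had median differences between -0.29 and 0.12, with at most 1 such spot 4-fold higher. No member probe lay that close to a spot marked as non-uniform. Members of a subfamily are related copies. Probe sequences were not analysed here, so how far 1 transcript feeds the probes of another was not tested, and members of a subfamily should not be counted as independent.

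Other lists of hair genes, given by role, moved differently. Hair shaft keratins, the filament partners of these proteins, had a named probe for 8 of 15 genes, and all 8 were measured. Their median was 0.26, with 1 at least 2-fold higher and none lower. Krt34 was the higher one, from 286 to 882 (1.40 ± 0.20), followed by Krt86 at 0.84 ± 0.20, while Krt35 was at -0.54 ± 0.20 and Krt82 at -0.66 ± 0.27. Inner root sheath genes, which form the sleeve around the shaft, had a named probe for 7 of 10, and all 7 were measured. Their median was -1.28, and 5 were at least 2-fold lower, led by Krt27 (3520 to 1430, -1.52 ± 0.20) and Tchh (-1.36 ± 0.20). The background share for 2-fold lower genes is 4.39%. Summed signal of the 7 went from 32100 to 15200.

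Regulators of the hair matrix and cortex did not follow the high glycine-tyrosine genes. Of 17, 15 were measured on both arrays, with a median of -0.15, none at least 2-fold higher and 2 lower, Foxq1 (-1.11 ± 0.20) and Msx1 (-1.07 ± 0.26). Hoxc13, a homeobox factor needed for hair keratin expression, read 27.5 and 28.8. Lef1, a Wnt pathway factor, read 28.1 on the control array and was not well above background on the knockout array, at least 2.34-fold lower. Foxn1, whose loss gives the nude phenotype, differed by 0.31 ± 0.21. Hoxc13 and Foxn1 were named after their values were seen. Of 6 other shaft structural genes, 5 were measured, with a median of -0.31 and none past 2-fold.

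Markers of other cells moved as well. Outer root sheath and stem cell markers had 3 of 6 measured genes at least 2-fold lower, against 4.39% of all genes measured on both arrays. Lgr5, measured on the control array alone, read 48.3 and 12.4, at least 4.54-fold lower. In that state 37.7% of all genes had a bound past 2-fold lower. Signals summed over all 7 markers were 76900 and 54500. The sum rests mostly on Plet1, which read 26300 and 3520 (-3.12 ± 0.20), and Krt15, which read 45600 and 48200 (-0.14 ± 0.20). All 3 measured melanocyte markers, which mark pigment cells of the hair bulb, were lower (median -2.05, summed signals over 4 genes of 1740 and 476), and Tyr was not well above background. The 5 cell cycle markers had a median of 0.76 and summed signals of 1670 and 3090, with Plk1 and Aurka at least 2-fold higher. Skeletal muscle markers summed to 789 and 266 over 5 genes and red blood cell markers to 18300 and 2110 over 3, and 5 dermal fibroblast markers to 2530 on each array, all before scaling. Most of the muscle sum on the knockout array was Mylpf, which read 176 and 200 (-0.04 ± 0.21). The median of the 4 muscle markers measured on both arrays was -2.46. After scaling, the fibroblast markers had a median of -0.32, and all 5 were below 0. Of 4 dermal papilla markers, Corin and Hhip were not well above background, Alpl differed by -1.05 and Crabp1 was at least 9.07-fold lower. All 3 endothelial markers were not well above background on either array, and of the 2 Langerhans cell markers Cd207 differed by 1.65 and Epcam by -0.38. The part of any of these in the Krtap differences was not tested. In these bulk samples, a different number of cells of a type and a different amount of RNA per cell cannot be told apart.

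**Figure D4:**
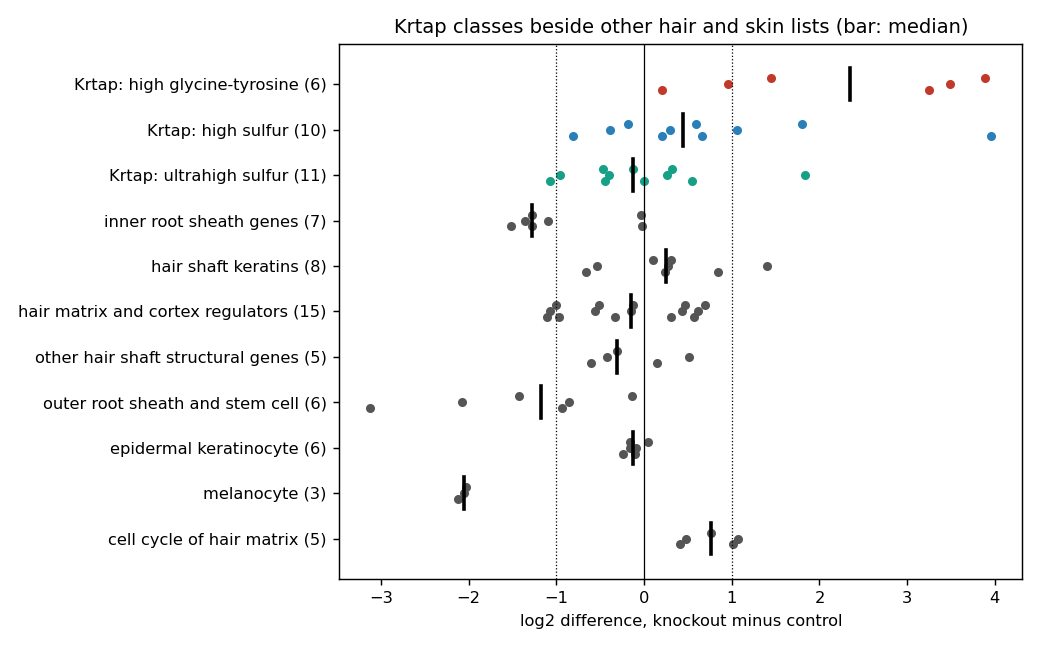
Log2 difference (knockout minus control) of genes measured on both arrays in 3 Krtap classes (coloured) and 8 other lists (grey), with the number of genes in parentheses and the median as a black bar. The high glycine-tyrosine median of 2.35 is at the right, the hair shaft keratins lie near 0.26 and the inner root sheath genes near -1.28.

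The ordering of the classes was checked under other processing. The median of the high glycine-tyrosine class ranged from 1.74 under normexp to 3.12 with the mean over probes. It was above the high sulfur and ultrahigh sulfur medians in the main setting and in all 9 alternatives that give a median. Only 5 of those can move a member's own value appreciably. The settings that let in dim members add members of this class measured on the knockout array alone, so they cannot check the ordering. Median scaling lifted all genes, moving their median from -0.04 to 0.31 and that of the ultrahigh sulfur class from -0.12 to 0.23. Of the 10 members called at 2-fold, 7 kept the call under median, quantile and loess scaling, normexp and the mean over probes. Krtap17-1, Krtap15 (0.08 under normexp) and Krtap1-5 (0.89 under normexp) did not. The authors' deposited table and leaving out probes near non-uniform spots moved no measured member by more than 0.02, so they test little.

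**Figure D5:**
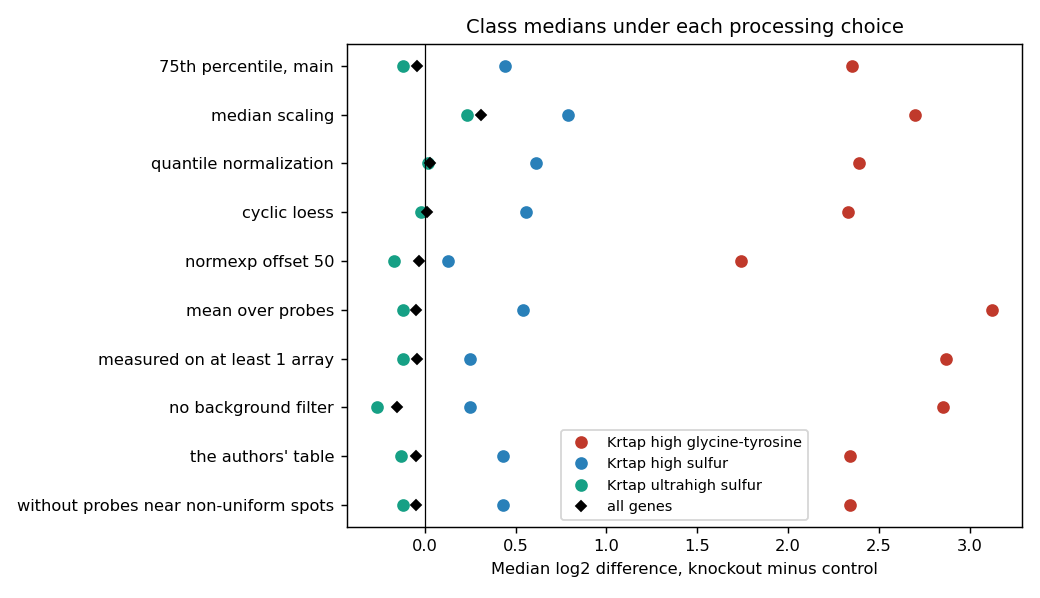
Median log2 difference (knockout minus control) of the 3 Krtap classes and of all genes under the main setting and 9 alternatives. The high glycine-tyrosine median lies between 1.74 and 3.12, to the right of the others in each row, and the ultrahigh sulfur median stays near that of all genes.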

How the data were processed

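Per the labels' protocols, skin was held for 30 min at 37°C in 3.8% ammonium thiocyanate, the epidermis was peeled, and Cy3-labelled cRNA was made from 0.5 µg RNA. Per the file headers, the scans were read in Agilent Feature Extraction 10.7.3.1. The deposited scanner files give intensity on a linear scale, background-subtracted and detrended within each array by the authors' software. The authors also deposited a table of log2 values, centred for each probe over both arrays (column medians 0.14 and -0.14). Its difference had a Pearson r of 1.00 with the scanner values across 18206 genes, so its direction and log2 scale are known, and levels cannot be had from it.

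Control spots and spots flagged as outliers were dropped, repeat spots were averaged per probe, and log2 signals were scaled to the 75th percentile of each array. Probes were named through the RefSeq accessions of GRCm38.p6, which named 26662 of 41134 (64.8%). A gene's probe with the highest mean signal represented it. Genes were called at 2-fold. Named genes were the members furthest apart, those with bounds, those whose probes differ in sign, and up to 4 genes of each other list. Markers used to check tissue and cell types, Hoxc13, Foxn1 and genes beside the cluster were named outside that rule. The members and lists were chosen with earlier results of these data known. Composition classes were meant to be computed from protein sequence and were instead assigned by subfamily number, after the files were seen. Normexp (offset 50) was run on median spot signals, without spots marked non-uniform in signal or background. The calling code was tested on simulated data. Python 3.11.15, numpy 2.4.6, pandas 2.3.3, matplotlib 3.10.9, R 4.3.3 and limma 3.58.1 were used.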

Additional observations from a re-analysis of the deposited data

Results flagged for a closer look

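The fainter of the 2 Krtap19-1 probes, which takes no part in the gene counts because the brighter probe represents the gene, was far higher on the knockout array, with signals of 26.8 and 718 and a log2 difference of 4.52 ± 0.27. The brighter probe differed by 1.45 ± 0.20.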

How the results depend on the processing

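No paired analysis was possible because a single array stands for each genotype. The counts of members at least 2-fold higher and lower (9 and 1) became 11 and 0 by median scaling and 7 and 0 by normexp. They were 15 and 2 when members dim on 1 array were let in, and also with no background filter. Members let in were counted by their raw difference and not by their bound, so Krtap19-5 is among them. Those added as higher were measured on the knockout array alone, so their direction is not a finding of its own. Members lower were 3 at 1.5-fold and 0 at 3-fold. All genes higher and lower (376 and 544) came to 1027 and 281 by median scaling, 183 and 229 by normexp, 669 and 1414 with no background filter, 1257 and 1633 at 1.5-fold, and 106 and 188 at 3-fold. With genes dim on 1 array let in, they came to 561 and 811. The median of members (0.32) was 0.67 under median scaling and 0.08 under normexp, and that of all genes (-0.04) was 0.31 under median scaling. For the high glycine-tyrosine class (2.35) it was 2.70 under median scaling, 1.74 under normexp, 3.12 with the mean over probes, 2.87 with members dim on 1 array let in and 2.85 with no background filter. The high sulfur median (0.44) was 0.79 under median scaling and 0.13 under normexp, and the ultrahigh sulfur median (-0.12) was 0.23 under median scaling. Of the values for single members, subfamilies and members outside chromosome 16, 284 stayed within 1 SE of the main value, 58 moved further and no called member changed sign. Only 5 alternatives can move a member's own value appreciably. The 284 include many values from the others, fixed in advance, so that count is no measure of stability. Of the 58, 30 arose under median scaling, which adds a constant 0.35 to every gene, 24 under normexp and 4 with the mean over probes. Normexp changes the signal statistic, the background and the offset together, so the cause of its shifts was not tested. Members with a control signal near 12.7 are measured only just above background, so their folds are the least precise.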
